A study of Oryza sativa Japonica Group with 14 samples.

Results

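These 610 regions carried an H3K4me3 peak in the vegetative shoot apex of rice and had no H3K4me3 peak in any inflorescence apex profiled. They are the peaks of the wild-type (WT) shoot apical meristem (SAM) H3K4me3 list that shared not even 1 bp with a peak in the H3K4me3 lists of 3 inflorescence meristem (IM) genotypes, nor with a WT SAM H3K27me3 peak. They were chosen from 22358 WT SAM H3K4me3 peaks, of which 18215 had no H3K27me3 peak in the SAM. The 610 make up 3.35% of those 18215 (95% Wilson interval 3.10 to 3.62%). The 8 peak lists of the series hold 130467 peaks together, and the 610 covered 755040 bp.

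The samples were hand-dissected apices of field-grown DongJin rice. WT SAM apices were under 0.5 mm and came from plants with 6 to 7 leaves, and IM apices of 1 to 2 mm came from plants with 10 to 12 leaves. The IM genotypes were WT, SDG711 RNAi plants and jmj703, a single T-DNA insertion line in JMJ703. IM apices were taken on 17 to 19 June from RNAi plants and on 21 to 24 June from WT and jmj703 plants, and about 400 plants were used in all. Days were also longer at the IM harvest than at the SAM harvest, so stage, date and day length cannot be told apart. Every tissue and genotype had 1 library per histone mark, so replicate error is unknown and no difference between libraries could be tested. The apices are mixed tissue, so fewer cells carrying the mark and less of it per cell cannot be told apart.

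H3K4me3 is laid down by Trithorax-type methyltransferases around the start of transcribed genes, and jumonji demethylases such as JMJ703 remove it. H3K27me3 is laid down by the Polycomb repressive complex, whose catalytic subunit in rice can be SDG711, and it marks genes held silent in a tissue. When the SAM stops making leaves and becomes an IM that makes branches and flowers, genes of leaf identity are switched off and floral genes come on. A region with H3K4me3 in the SAM and none in the IM, and without H3K27me3 at the start, is a place where the mark of activity is listed before the transition and not after it. Positions are those of the deposited lists, and no source used here states their genome build, so regions are named by position, without genes or sequence.

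The clearest members were 8 regions with the largest −log10 of the deposited p. The first lay at chr6:28045748-28048310, was 2563 bp long and held 201 tags, with a fold enrichment of 4.18 in the deposited list and −log10 p of 22.3. It was the only member past a −log10 p of 20. The nearest H3K4me3 peak of any IM library was 8605 bp away, in SDG711 RNAi IM, and the WT IM and jmj703 IM peaks next to it were 8893 and 8688 bp away. No IM H3K4me3 peak thus lay on either side of this SAM signal for several kilobases, while 13 other SAM H3K4me3 peaks started within 100 kb. The nearest H3K27me3 peaks were 2361 bp away in jmj703 IM and 3859 bp away in SDG711 RNAi IM, against 35730 bp in WT IM.

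The second, at chr5:649258-650632, had 122 tags, 4.54-fold enrichment and −log10 p of 19.6. Its summit was 359 bp from the left edge of a 1375 bp peak, so the signal was lopsided. A broad SDG711 RNAi IM H3K4me3 peak of 3061 bp with 892 tags was the closest IM peak, at 5606 bp. The third, at chr10:14763529-14765102, had 117 tags at the same fold of 4.54. All 3 IM libraries had an H3K4me3 peak 3392 to 3462 bp from it, so the neighbouring region kept the mark.

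The fourth lay at chr3:4349049-4350664, with 130 tags, 5.12-fold enrichment and −log10 p of 17.5. It was the only one of the 8 that had an H3K27me3 peak in an IM library. That WT IM peak ran from 4348932 to 4349861, covered 813 bp of the region, and held 92 tags at a fold of 3.15. Its −log10 p was 6.34, not far above the deposited cutoff of 5. The nearest SAM H3K27me3 peak was 28596 bp away. Neither altered genotype had an H3K27me3 peak there, with the nearest peak 28690 bp away in SDG711 RNAi IM and 16299 bp away in jmj703 IM. Their H3K27me3 libraries held fewer tags than that of WT IM (10502005 and 14337383 against 22887617). The part of depth in this difference was not tested.

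The other 4 lay on chromosomes 1, 3 and 10. The peak at chr1:24855769-24857409 held 128 tags at a fold of 3.51, and that at chr10:17683243-17684707 held 124 tags at a fold of 3.79. The peak at chr1:40605739-40606966 also held 128 tags, but in 1228 bp, at a fold of 6.14. An SDG711 RNAi IM H3K4me3 peak lay 337 bp from it and a WT IM peak 377 bp from it. The peak at chr3:31453321-31454794 held 147 tags at a fold of 4.56, with an IM H3K4me3 peak 2886 bp away. All 8 had a peak kept in all 3 IM lists within 10 kb, as had 65.1% of all members and 67.7% of the kept peaks themselves. Of the 8, 5 had a SAM H3K27me3 peak within 5 kb, against 35.2% of all members and 23.3% of the kept peaks.

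As a set, the members were weak peaks of the SAM list. These values come from the library that chose the members, so they are a description. The median −log10 p was 6.71, with a range of 5.01 to 22.3, and the deposited cutoff lies at 5. The 15926 H3K4me3-only peaks found in all 3 IM lists had a median of 19.5. Of the 610, 608 lay below that median. The median fold was 3.45 (lowest 2.14, highest 6.44) against 5.19 in the kept peaks, and 560 of the 610 had a fold below the lower quartile of the kept peaks, 4.42.

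**Figure D1:**
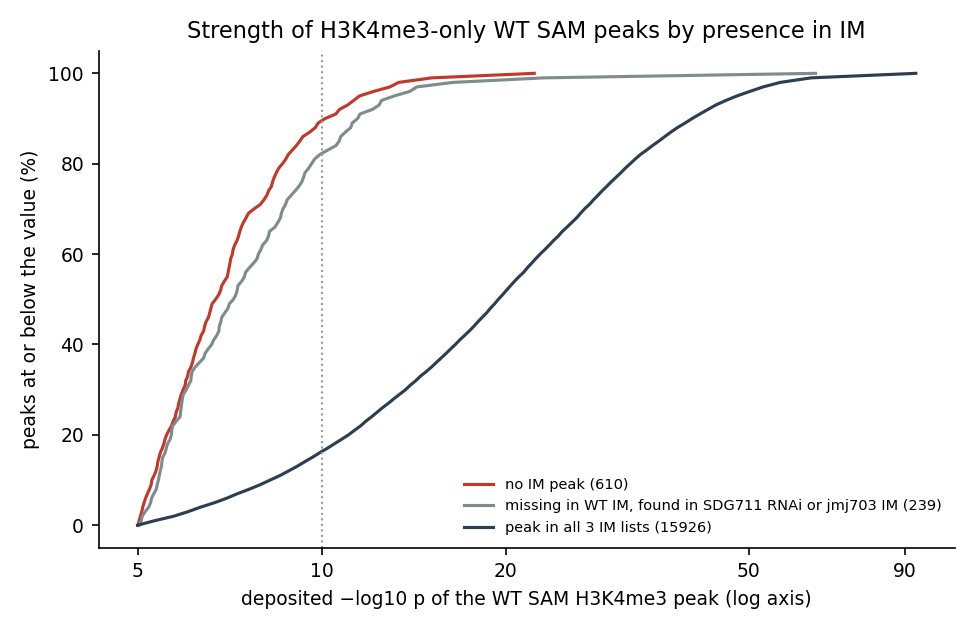
Cumulative share of H3K4me3-only WT SAM peaks (vertical axis, %) at or below a deposited −log10 p (horizontal log axis), for the 610 with no IM peak, the 239 missing in WT IM but found in an altered genotype, and the 15926 found in all 3 IM lists. The dotted line is at 10, which 63 of the 610 reached, and the medians are 6.71, 7.18 and 19.5.

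The members were also somewhat shorter and held fewer tags. The median length was 1137.5 bp against 1337 bp in the kept peaks, and the median tag count 86 against 141. Per kilobase the members held 74.0 tags and the kept peaks 104. The summit lay at a median of 0.110 of the peak length from the middle in the members and 0.0883 in the kept peaks. Among peaks with p above 1e-10 in both sets the medians were 0.106 and 0.0737, so the less central summit was also seen among peaks of low significance. In that range the members were no longer the shorter set, with a median length of 1105 bp (interval 1073 to 1143 bp) against 1070 bp (1060 to 1080 bp). Their fold was still lower, at 3.39 (3.36 to 3.46) against 4.02 (3.99 to 4.07). A less central summit was not particular to members, whose median had an interval of 0.0988 to 0.121. In the 1421 SAM peaks with both marks and no IM H3K4me3 peak the median was 0.110 (0.103 to 0.116). In the 239 missing in WT IM but found in an altered genotype it was 0.0933 (0.0741 to 0.108).

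**Figure D2:**
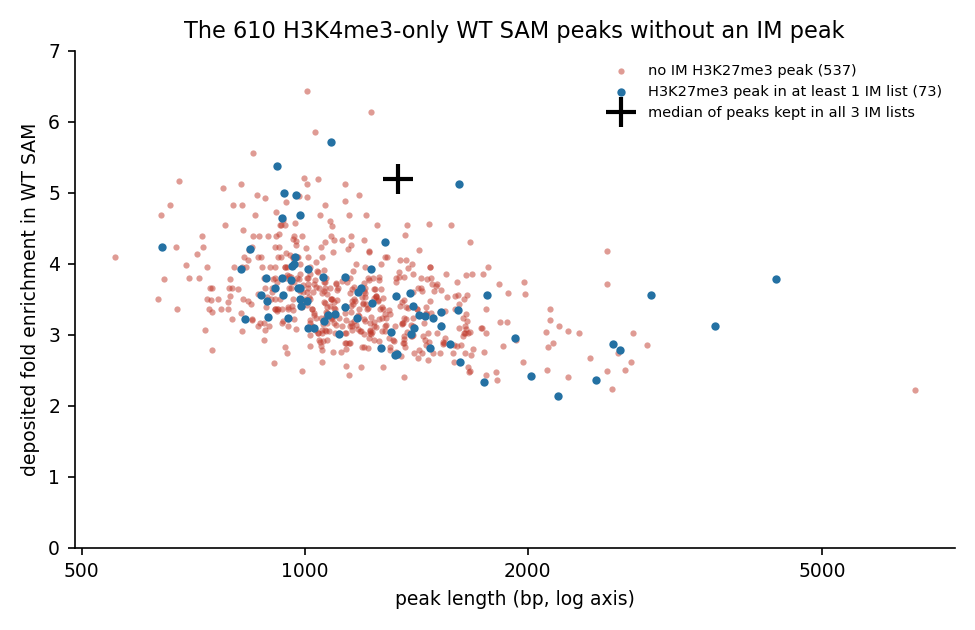
Deposited fold enrichment (vertical axis) against peak length in bp (horizontal log axis) for the 610 members, each point being 1 peak, with the 73 that overlapped H3K27me3 in at least 1 IM list in blue and the median of the kept peaks as a cross. Most members lie below the cross, and the longest peaks have folds between 2 and 4.

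The 5 members with the largest fold were 851 to 1228 bp long and held 57 to 128 tags. The peak at chr12:27197229-27198234 held 67 tags and had a deposited fold of 6.44 but −log10 p of 6.56. At chr5:6148786-6149818, with 83 tags, the fold was 5.85, and the nearest IM H3K4me3 peak was 12434 bp away. At chr3:12809209-12810059, with 57 tags, it was 5.56. The region at chr6:20178136-20179221, with 90 tags and a fold of 5.71, overlapped a jmj703 IM H3K27me3 peak of 916 bp by 466 bp. The remaining one is the chromosome 1 peak of fold 6.14 above, and in all 15 members reached a fold of 5.

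The longest members were of another kind. At chr1:33531901-33538565, 694 tags were spread over 6665 bp, with a deposited fold of 2.22 and −log10 p of 5.20. The background implied by that p was 87.9 tags per kb, against a library mean of 34.2 tags per kb. The member at chr2:13614144-13618475 had 448 tags over 4332 bp and a deposited fold of 3.78. An SDG711 RNAi IM H3K27me3 peak of 5292 bp with 400 tags covered it completely. There too the background was high, at 82.9 tags per kb. The next 3 were 2902 to 3584 bp long with 235 to 321 tags. At chr10:5352502-5356085 a WT IM H3K27me3 peak with 113 tags overlapped 1011 bp of the member. At chr6:18060556-18063488 WT IM and jmj703 IM H3K27me3 peaks of 1998 and 957 bp both lay wholly inside the member, whose −log10 p was 12.6. At chr6:25236626-25239527, with 321 tags, the nearest IM H3K27me3 peak was 37398 bp away, and the nearest IM H3K4me3 peak was 1290 bp away. No control library was used, so extra sequence copies in these places were not tested.

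Background at 2 times the library mean or more was found in 13 members, or 2.13%, against 1.34% of the kept peaks. At the other end, the background equalled the library mean to within 0.1% in 132 members (21.6%), against 11.7% of the kept peaks. With no control library this background includes the tags of the peak itself, and the kept peaks hold more of them. With p above 1e-10 in both sets the medians were 39.3 tags per kb in the members and 41.7 in the kept peaks. The number of other SAM H3K4me3 peaks starting within 100 kb had a median of 14 in each set.

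The lists a member is missing from were not equally deep, and this limits what absence means. The WT SAM library had 13703302 tags, WT IM 18452560, SDG711 RNAi IM 17941001 and jmj703 IM 4869161. The tags and the background of each member were multiplied by the ratio of depths. At the WT IM and SDG711 RNAi IM depths all 610 reached the deposited p cutoff, as did all 18215 H3K4me3-only peaks (100%). Both libraries are deeper than WT SAM, so a peak past the cutoff stays past it and this outcome was fixed in advance. At the jmj703 IM depth only 23 of the 610 reached the cutoff (3.77%, interval 2.53 to 5.59%), against 67.9% of the 18215. By this calculation, absence from the jmj703 list cannot be told apart from too few tags for most members. It understated detection in that list, however. Of the 15926 kept peaks, 11879 reached the cutoff at the jmj703 IM depth (74.6%), while all had a jmj703 IM peak. The 3.77% is thus not a measure of what that list could show. The calculation assumes equal enrichment in both libraries, while the share of tags inside peaks was 24.4% for WT SAM and 37.7 to 41.1% for the 3 IM libraries.

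The jmj703 list changed the membership little. WT IM and SDG711 RNAi IM were both without a peak at 651 H3K4me3-only SAM regions, and jmj703 IM had one at 41 of them. Taken singly, WT IM lacked a peak at 849 regions (4.66%), SDG711 RNAi IM at 884 (4.85%) and jmj703 IM at 2146 (11.8%). Of the 849 missing in WT IM, 156 had a peak in SDG711 RNAi IM only, 42 in both altered genotypes and 41 in jmj703 IM only, which leaves the 610. Those 239 were close to the members in strength, with a median fold of 3.66 and a median length of 1099 bp.

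Strength in the SAM list went with presence in the IM. Among H3K4me3-only SAM peaks with −log10 p under 10, 547 of 4078 had no IM peak (13.4%, interval 12.4 to 14.5%). From 10 to 15 it was 56 of 3426 (1.63%), and from 15 to 20 it was 6 of 2900 (0.207%). A value of 20 was reached by 7811 peaks, of which 1 was missing, the chromosome 6 region described first.

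SAM H3K4me3 peaks that overlapped SAM H3K27me3 were missing from the IM lists far more often at every strength. Without regard to strength, 1421 of these 4143 had no IM H3K4me3 peak (34.3%). With −log10 p under 10 the share was 62.7% (1096 of 1747, interval 60.4 to 65.0%), and from 10 to 15 it was 33.1% (264 of 798). It was 12.5% from 15 to 20 and 0.919% from 20 upwards. In each of the 4 ranges the interval lay above that of the H3K4me3-only peaks. Both sets were split by the lists that define the members, so this is a description.

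**Figure D3:**
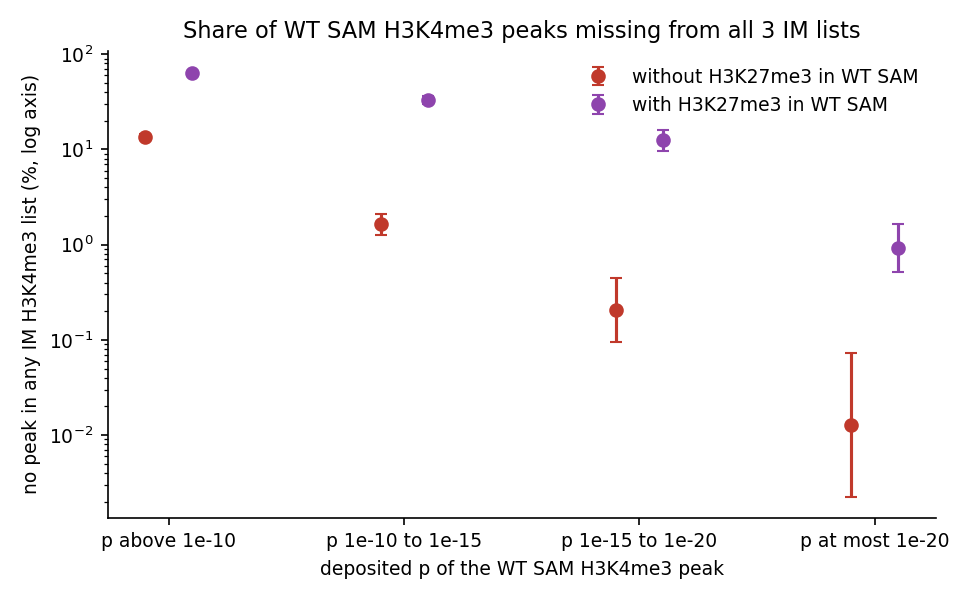
Share of WT SAM H3K4me3 peaks with no peak in any IM H3K4me3 list (vertical log axis, %), by the deposited p of the SAM peak (horizontal axis), without and with an overlapping WT SAM H3K27me3 peak. Points are shares and bars 95% Wilson intervals over peaks, falling from 13.4 to 0.0128% without H3K27me3 and from 62.7 to 0.919% with it.

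The IM H3K27me3 lists were not used to choose the members and show whether Polycomb marking was listed where H3K4me3 was not. Mostly it was not, as 537 of the 610 members had no H3K27me3 peak in any IM genotype. The remaining 73 made up 12.0%, against 12.3% of all 18215 H3K4me3-only SAM peaks. WT IM had an H3K27me3 peak at 47 members (7.70%, interval 5.84 to 10.1%). The SDG711 RNAi IM list had one at 28 (4.59%, interval 3.19 to 6.55%) and the jmj703 IM list at 38 (6.23%, interval 4.57 to 8.43%). Over the 18215 these shares were 7.21, 2.79 and 8.49% in the same order. In WT IM the share at members was thus close to the background. In SDG711 RNAi IM it was above the 2.71% of the kept peaks (interval 2.47 to 2.97%), and in jmj703 IM below their 8.92% (interval 8.49 to 9.38%), with intervals that did not overlap. With IM H3K27me3 peaks at p at most 1e-10 both separations ended. The shares were then 2.13% (1.25 to 3.61%) against 1.31% (1.14 to 1.49%) for SDG711 RNAi IM, and 3.11% (2.00 to 4.81%) against 3.10% (2.84 to 3.38%) for jmj703 IM. Without that cutoff, WT IM H3K27me3 overlapped 7.53% of the 239 peaks missing only in WT IM or in WT IM and 1 altered genotype (4.82 to 11.6%). The SDG711 RNAi list overlapped 6.28% of the 239 (3.84 to 10.1%), and the jmj703 list 8.79% (5.82 to 13.1%). Each interval overlapped that of the members. For SDG711 RNAi it also lay above that of the kept peaks, so the higher share there was not particular to members.

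The kept peaks are much stronger, and WT IM H3K27me3 was less common on the weak ones among them, since 8.25% of those with p at most 1e-10 overlapped it. Among kept peaks with p above 1e-10, 89 of 2606 overlapped WT IM H3K27me3 (3.42%, interval 2.78 to 4.18%). Among the 547 members in that range it was 44 (8.04%, interval 6.05 to 10.6%), and the intervals did not overlap. For SDG711 RNAi IM the shares were 4.94% in the members (interval 3.41 to 7.09%) and 2.65% in the kept peaks (interval 2.10 to 3.34%), and here too they did not overlap. For jmj703 IM they were 6.03% (interval 4.33 to 8.35%) and 4.22% (interval 3.51 to 5.06%), with overlapping intervals, so the order of members and kept peaks in jmj703 IM turned with the range of strength. The 239 peaks missing in WT IM were not split, but only 43 of them had p at most 1e-10. Their WT IM share of 7.53% (4.82 to 11.6%) also lay above that of the weak kept peaks. The higher WT IM share was thus not particular to members. The split at 1e-10 was chosen after the values were seen, the intervals cover counting error over peaks only, and no difference between libraries was tested.

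**Figure D4:**
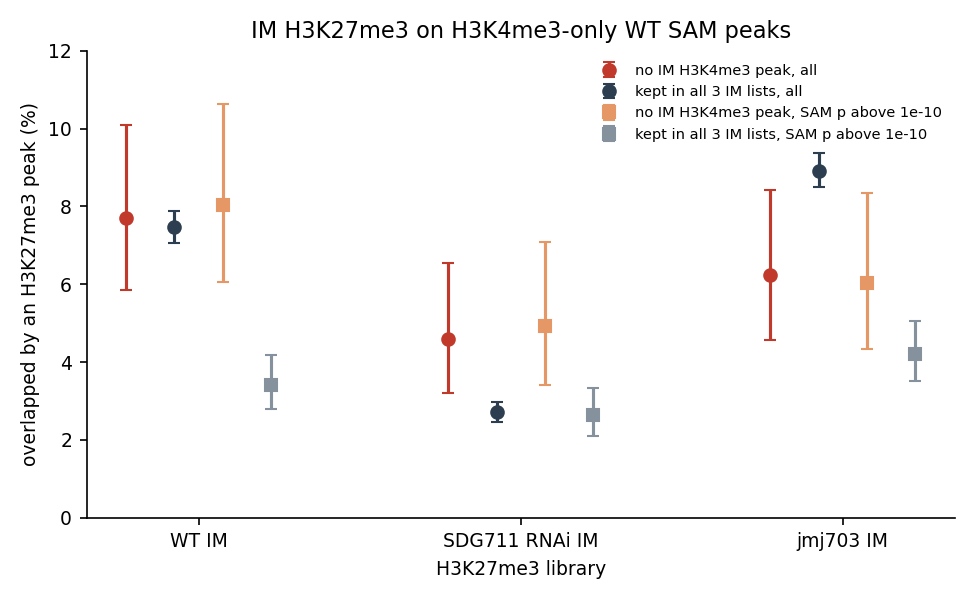
Share of H3K4me3-only WT SAM peaks overlapped by an H3K27me3 peak (vertical axis, %) in each IM genotype (horizontal axis), for members and for peaks kept in all 3 IM lists, over all peaks (circles) and over those with SAM p above 1e-10 (squares). Bars are 95% Wilson intervals over peaks, and in WT IM the circles lie at 7.70 and 7.46% and the squares at 8.04 and 3.42%.

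The 73 members with IM H3K27me3 fell into every combination of genotypes. It was found in WT IM alone at 21, in jmj703 IM alone at 12, in SDG711 RNAi IM alone at 10, and in WT IM and jmj703 IM at 12. Both altered genotypes without WT IM had it at 4 members, and WT IM with SDG711 RNAi IM at 4. All 3 genotypes had it at 10 members (1.64%, interval 0.893 to 2.99%), against 1.48% of all 18215 H3K4me3-only peaks. Among the 239 peaks missing in WT IM but found in an altered genotype it was 4.18% (2.29 to 7.53%). The other combinations were not counted over the 18215, so their counts only describe the members. The WT IM, SDG711 RNAi IM and jmj703 IM H3K27me3 libraries held 22887617, 10502005 and 14337383 tags, and the part of this depth in the combinations was not tested.

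The H3K27me3 peaks on members were mostly ones with no counterpart in the SAM. In WT IM 32 of the 47 did not touch any SAM H3K27me3 peak (68.1%, interval 53.8 to 79.6%). The SDG711 RNAi list had 20 such peaks of 28 (71.4%) and the jmj703 list 28 of 38 (73.7%). Over all peaks of these lists the shares were 31.5, 31.4 and 32.7%, but the members were chosen to lack SAM H3K27me3, which raises the share by itself. The WT IM peaks on members had a median fold of 3.13 against 3.29 for their list, and a median −log10 p of 9.60 against 13.2. They covered at least 50% of the member in 43 of the 47 cases, and their summit lay inside it in 26.

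Among members with H3K27me3 in all 3 IM lists, the highest WT IM H3K27me3 fold was at chr8:23642069-23643054. In the SAM the region had an H3K4me3 peak of 986 bp with 67 tags at a fold of 4.68. WT IM had H3K27me3 from 23641993 to 23643133 with 125 tags at a fold of 5.17, SDG711 RNAi IM had 89 tags at a fold of 8.97, and jmj703 IM had 88 tags at a fold of 6.57. None of these peaks met a SAM H3K27me3 peak, the nearest being 8730 bp away. All 3 H3K27me3 peaks had nearly the edges of the SAM H3K4me3 peak, so at this region 1 mark was listed in the SAM and the other in every IM.

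The next 4 showed broader H3K27me3. At chr9:18667121-18668082, with 74 H3K4me3 tags, WT IM H3K27me3 ran from 18662470 to 18668057 with 930 tags, and the peaks of all 3 genotypes also met SAM H3K27me3, whose nearest peak was 1647 bp from the member. At chr2:23157726-23159112, with 118 H3K4me3 tags, the WT IM and jmj703 IM peaks of 4348 and 4322 bp likewise reached over from a region marked in the SAM. At chr3:2639174-2640499 and at chr8:1039328-1040216, H3K27me3 had no SAM counterpart in any of the 3. The chromosome 3 region held 94 H3K4me3 tags in the SAM and 233 H3K27me3 tags in WT IM, and the chromosome 8 region 58 and 367. Of the 10 members with H3K27me3 in all 3 lists, the peaks of all 3 were without a SAM counterpart at 5.

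Members with and without IM H3K27me3 had similar H3K4me3 strength, and their distances to Polycomb regions of the SAM overlapped widely. The median fold was 3.45 in both, and the median length 1134 bp in the 73 and 1138 bp in the 537. The median distance to a SAM H3K27me3 peak was 4274 bp in the 73 (95% interval of the median 2635 to 13087 bp) and 8911 bp in the 537 (7837 to 10078 bp). These intervals overlapped, and the upper quartile was the larger one in the 73, at 26456 bp against 20183 bp.

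The members as a whole lay nearer to SAM H3K27me3 than the kept peaks did. The median distance was 8665.5 bp (interval 7644 to 9556 bp) against 11817 bp (11558 to 12062 bp). A SAM H3K27me3 peak lay within 5 kb of 215 members (35.2%, interval 31.6 to 39.1%) and of 23.3% of the kept peaks (22.7 to 24.0%). With p above 1e-10 in both sets the shares were 35.5% (31.6 to 39.6%) and 28.2% (26.5 to 29.9%), so the intervals stayed apart. The median distances in that range were 8921 bp (7794 to 10108 bp) and 10677 bp (10038 to 11303 bp), with overlapping intervals. The rule excludes members that touch SAM H3K27me3, and the same holds for the kept peaks. The members were set apart less from 2 other groups, over all strengths. Of the 239 peaks missing in WT IM but found in an altered genotype, 27.2% lay within 5 kb (21.9 to 33.2%). Of the 1440 found in WT IM but missing in 1 or 2 altered genotypes, 29.2% did (26.9 to 31.64%). Both intervals overlapped that of the members, which starts at 31.56%, the second only at its edge.

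Distance to retained H3K4me3 set the members apart less. A peak kept in all 3 IM lists lay within 5 kb of 234 members (38.4%, interval 34.6 to 42.3%), and 34.7% of the kept peaks had another kept peak that close (33.9 to 35.4%). The median gap was 6834.5 bp for the members and 6777.5 bp for the kept peaks. With p above 1e-10 the shares were 38.4% and 43.5%, and the intervals of 34.4 to 42.5% and 41.6 to 45.4% overlapped.

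The nearest IM H3K4me3 peak of any genotype was a median of 3768 bp away, with a range of 33 to 77016 bp. The rule fixes that this gap is not 0. By library the median was 4441 bp to WT IM, 4145.5 bp to SDG711 RNAi IM and 5189 bp to jmj703 IM. An IM H3K4me3 peak lay within 500 bp of 39 members and within 1 kb of 85, and 113 members had none within 10 kb. At 30 members an IM peak within 1 kb was itself new, overlapping no SAM H3K4me3 peak, and at 11 of these all 3 IM lists had such a new peak. These are 4.92% (interval 3.47 to 6.93%) and 1.80% (1.01 to 3.20%) of the members, against 2.11 and 0.357% of all 18215 H3K4me3-only SAM peaks. The rule bears on this, since a kept peak has an IM peak of its own in place and a member has not.

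The members just inside the limit on overlap had an IM peak close beside them in WT and SDG711 RNAi plants and none within 9 kb in jmj703. At chr12:22467967-22469016, with 79 tags, a WT IM H3K4me3 peak of 1471 bp with 155 tags lay 33 bp away, and an SDG711 RNAi IM peak lay 120 bp away. At chr11:8085078-8086116, with 75 tags, the gaps were 37 and 120 bp. Just outside were a peak at chr1:24613672-24615235, with 159 tags, which shared 18 bp with an SDG711 RNAi IM peak, and one at chr6:24315580-24316254, with 51 tags, which shared 46 bp with another. Neither had a WT IM or jmj703 IM peak within 6 kb. The weakest members were at chr1:25647159-25647798, with 44 tags, and at chr5:1633329-1634897, with 122 tags over a higher background, both at a −log10 p of 5.01.

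Most members had no other member within 5 kb. Of the 610, 24 lay within 5 kb of another member (3.93%, interval 2.66 to 5.79%), in 12 pairs, and no run held more than 2. With gaps of up to 20 kb, 74 lay in runs (12.1%). The closest pair, at chr5:16045062-16047995, held 202 tags in 2 peaks 211 bp apart. Pairs 238 bp apart at chr6:26672166-26674907 and 292 bp apart at chr3:25843179-25846120 followed. At none of the 12 pairs did an IM H3K4me3 peak lie between the members. Of the kept peaks, 34.7% lay within 5 kb of another kept peak, but they are far more numerous, so the shares are not comparable. Whether members lie closer together or further apart than other peaks was not tested.

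All 12 chromosomes held members, from 31 on chromosome 12 to 85 on chromosome 1. As a share of the H3K4me3-only SAM peaks they made up between 2.03% on chromosome 2 (43 of 2115, interval 1.51 to 2.73%) and 4.33% on chromosome 10 (42 of 971, interval 3.22 to 5.80%). These extremes were picked after the values were seen, and their intervals did not overlap. The interval of chromosome 2 was also the only one that did not reach the overall 3.35%. Of 378 windows of 1 Mb with an H3K4me3-only SAM peak, 293 held at least 1 member and 40 held 4 or more. The most in a window was 7, at chr3:21000001-22000000, where 53 peaks were eligible (13.2%, interval 6.55 to 24.8%), and at chr5:4000001-5000000, among 72.

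**Figure D5:**
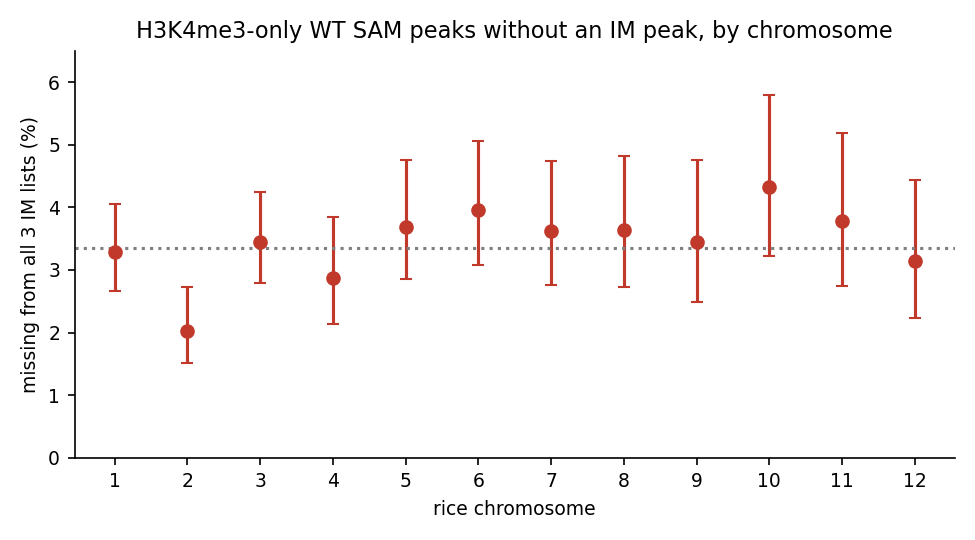
Share of H3K4me3-only WT SAM peaks missing from all 3 IM lists (vertical axis, %) on each rice chromosome (horizontal axis). Points are shares, bars 95% Wilson intervals over peaks and the dotted line the genome-wide 3.35%, with chromosome 2 lowest at 2.03% and chromosome 10 highest at 4.33%.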

How the data were processed

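ChIP-seq peak lists of 8 libraries were used, and the 6 RNA samples were not analysed here. The authors ran MACS 1.4.0rc2 on each library, per the file headers, on alignments whose name marks duplicates as removed, with no control library, a p cutoff of 1e-05 and a regional background window of 10 kb. The submitters' processing notes list Bowtie2 2.1.0 and Trimmomatic 0.32 and do not say for which data. The deposited tag count of a peak is raw. The deposited score is minus 10 times the log10 of a Poisson p against the background of the same library, printed here as −log10 p. The deposited enrichment is a linear ratio, printed here as fold. It is not the tags of the whole peak over the background obtained from the deposited p. That ratio had a median of 1.85 in the members and 2.39 in the kept peaks.

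Starts below 1 were set to 1. Overlap meant at least 1 bp, and gaps are bases between edges. The background of a peak was obtained by inverting the deposited p at its tag count. Overlap, gap and background code was tested on simulated data. Shares have 95% Wilson intervals and medians 95% order-statistic intervals, which cover counting error over peaks and not differences between plants or preparations. Regions were named by fixed ranks: the 8 largest −log10 p, the 5 largest folds, the 5 longest, the 5 largest WT IM H3K27me3 folds among members marked in all 3 lists, and those nearest to the limits of the rule. The 12 runs of members tied in size, so the 3 with the smallest gap were named. The members and lists were chosen with earlier results of these data known. Python 3.11.15, pandas 2.3.3 and scipy 1.17.1 were used.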

Additional observations from a re-analysis of the deposited data

How the results depend on the processing

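The number of members stayed within 1.5 times of 610 with 50% coverage as overlap, with a 500 bp margin, and with the WT IM, SDG711 RNAi IM or jmj703 IM list left out (554 to 783). It moved to 63 with SAM p at most 1e-10 and to 1653 with p at most 1e-10 in the lists a member must miss. With IM H3K27me3 peaks at p at most 1e-10, the shares of members overlapped were 3.77, 2.13 and 3.11% for WT, SDG711 RNAi and jmj703 IM, and for the kept peaks 2.32, 1.31 and 3.10%. In the 63 members with SAM p at most 1e-10 they were 4.76% in WT IM and 1.59% in SDG711 RNAi IM. For SDG711 RNAi IM the share was 2.79% when 50% of the member had to be covered (1.14% of the kept peaks) and 6.72% with a 500 bp margin. In the 23 members that reach the cutoff at the jmj703 depth, a setting chosen after seeing the data, the SDG711 RNAi share was 0% and that of jmj703 IM 8.70%. A count of 0 in 23 peaks allows a share of up to 13.0%. In the 63, the medians were 1395 bp, a fold of 3.81, 113 tags and a −log10 p of 11.5. A kept H3K4me3 peak lay within 1 kb of 4.43% and within 10 kb of 65.1% of members, and a SAM H3K27me3 peak of 6.56% and 54.8%. Members in runs numbered 6 at 1 kb and 74 at 20 kb. The cause of these shifts was not tested. Total tags equalled tags after filtering, so that alternative gave identical values. No paired analysis was possible because each ChIP group had 1 library.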
